A study of Arabidopsis thaliana with 4 samples.

Results

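The genes described are COR15A, COR15B, COR47, LTI30 and HIS1-3 of Arabidopsis thaliana, which are known for their response to cold and to drying. They were chosen by gene symbol among the probe sets that the array's annotation assigns to a single gene, and all 5 had exactly 1 such probe set, out of 13286 genes so covered. The choice was made with their differences between exo70A1-2 and Col-0 already known, HIS1-3 for its rise and the others from a cold and drought list. Those differences are therefore given as a description, and neither they nor the side of a threshold on which they lie are independent support for anything.

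The study compared the wild-type accession Col-0 (2 arrays) with the mutant exo70A1-2 (2 arrays), which the labels place in the Col-0 background without describing the lesion of the allele. EXO70A1 is a subunit of the exocyst, which tethers secretory vesicles to the plasma membrane. All arrays held RNA of whole plants aged 1.0 week, raised on upright plates with 1.6% agar and 75 seeds each, in a chamber at 22 °C, 65% humidity and unbroken light. No cold, drought or hormone treatment is named in the labels, but the seed of both genotypes had spent 3 days in water at 4 °C before sowing. The labels do not say whether arrays of 1 genotype came from separate cultures, so the errors given cover the spread of these arrays alone, possibly a technical one, and 2 arrays per genotype limit the precision.

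In chilled plants, transcription factors of the CBF (DREB1) family bind a short element in the promoters of cold-regulated (COR) genes and switch them on. Water deficit acts on many of the same genes through abscisic acid (ABA) and the factors that carry its signal. The proteins made include dehydrins and other hydrophilic proteins related to those of late embryogenesis, which are thought to shield membranes and enzymes as cells lose water. COR15A and COR15B are small proteins of the chloroplast stroma that stabilise chloroplast membranes during freezing. COR47 is an acidic dehydrin and LTI30 a basic dehydrin that binds membranes. HIS1-3 is a linker histone H1 variant whose gene responds to drought and ABA.

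The 5 genes did not move as a block. HIS1-3, COR15A and LTI30 were higher in exo70A1-2, COR15A by 2.12-fold and LTI30 by 1.91-fold. By its mean mutant signal HIS1-3 was at least 4.11-fold higher, a figure that leaves out the spread of that mean. COR47 differed by less than the spread between replicates, and COR15B was lower by a difference that did not pass the test. In a limma fit across 13648 probe sets, 3 of the 5 were called higher and 0 lower at an adjusted p under 0.05, where 8.54% of all tested probe sets were called higher and 7.50% lower. Both exo70A1-2 arrays lay above both Col-0 arrays for the same 3 genes, and for 30.0% of all tested probe sets. Since the genes were picked with this comparison in view, nothing is read from these counts. The median log2 fold change of the 5 genes was 0.93, which is the value of LTI30, beside -0.00086 over all tested probe sets. For the same reason nothing is read from this median. In whole seedlings, a larger number of cells that make a transcript and more transcript per cell cannot be told apart.

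**Figure D1:**
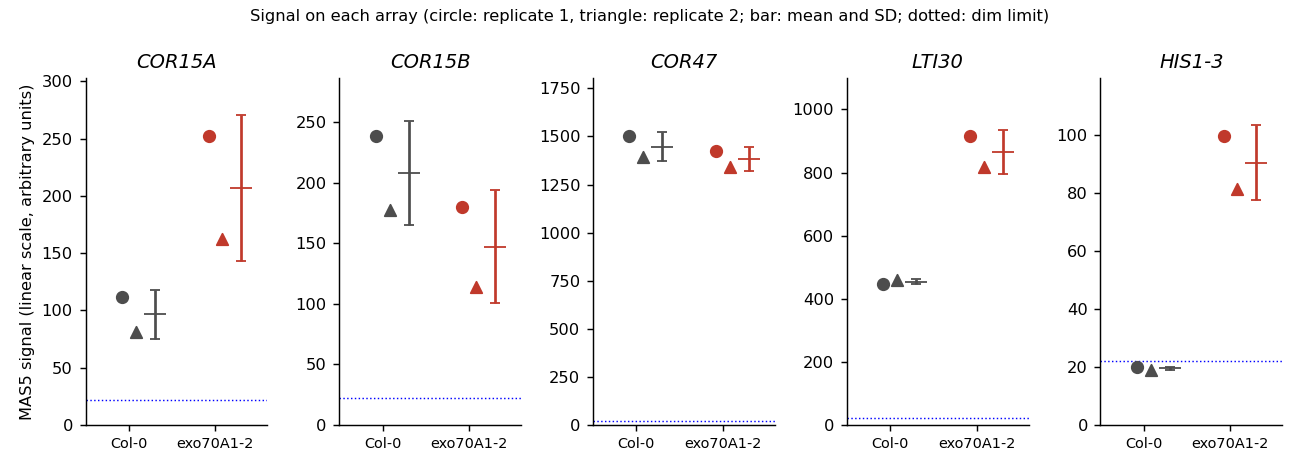
MAS5 signal (linear scale) of each gene on each array, with grey points for Col-0, red points for exo70A1-2, circles for replicate 1, triangles for replicate 2, and bars for the mean and SD of 2 arrays. The genotypes lie apart for COR15A, LTI30 and HIS1-3 and overlap for COR15B and COR47, and the HIS1-3 signals of Col-0, 19.9 and 19.0, lie under the dotted dim limit of 21.9.

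The 2 chloroplast genes are considered first. COR15A (AT2G42540) had a signal of 111 and 81.5 on the Col-0 arrays and of 252 and 162 on the exo70A1-2 arrays. The lowest mutant array thus lay above the highest wild-type array, and replicate 1 was the higher array in each genotype. The means were 96.4 ± 21.2 in Col-0 and 207 ± 63.7 in exo70A1-2 (SD, n = 2 arrays here and below), which gave a fitted log2 difference of 1.09 (SE 0.23, the moderated standard error of the fit, 95% interval 0.57 to 1.60). Set against each other singly, the 4 combinations of a mutant and a wild-type array gave log2 differences from 0.54 to 1.63, so the size of the COR15A rise was known only within a wide range. The gene stood at rank 297 of the 13648 tested probe sets when these were ordered by log2 fold change from the largest rise downward.

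COR15B (AT2G42530), the gene next to COR15A, had a signal of 239 and 178 in Col-0 and of 180 and 114 in exo70A1-2. The genotypes overlapped, because exo70A1-2 replicate 1 lay just above Col-0 replicate 2. The log2 fold change was -0.52 (SE 0.22), the mean being 208 ± 43.0 in Col-0 against 147 ± 46.5 in the mutant. Its unadjusted 95% interval, -1.03 to -0.01, reached almost to 0, and the difference did not pass after adjustment over all tested probe sets. Whether it passed depended on which arrays entered the fit. The fitted value fell to -0.85 on leaving out exo70A1-2 replicate 1 and to -0.73 on leaving out Col-0 replicate 2, and both passed. It shrank to -0.31 on leaving out Col-0 replicate 1 and to -0.19 on leaving out exo70A1-2 replicate 2, and neither passed.

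COR15A and COR15B varied together between replicates and apart between genotypes. The replicate 1 array exceeded the replicate 2 array by 1.37-fold for COR15A and 1.34-fold for COR15B in Col-0, and by 1.56-fold and 1.58-fold in exo70A1-2. Such gaps were wide for signals of this strength. Among the tested probe sets of like mean signal (10 equal classes), 99.1% (COR15A) and 99.3% (COR15B) had a smaller gap between the exo70A1-2 arrays, and 90.0% had a smaller gap between the Col-0 arrays for either gene. In both genotypes, 90 of the 13648 tested probe sets (0.659%) had replicate 1 above replicate 2 by at least 0.42 on the log2 scale. This limit was the smallest of the 4 gaps of this gene pair, so both genes met it by construction. It was set after the pattern was seen, and the share is no test of the pattern. What arrays of the same number share is not stated in the labels.

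Because the pair moved together between replicates, the log2 ratio of COR15A to COR15B within an array was steadier than either gene. Relative to its Col-0 mean, the ratio was 0.01 and -0.01 in Col-0 and 1.60 and 1.62 in exo70A1-2. The ratio therefore lay 3.05-fold higher in the mutant, with arrays of 1 genotype within 0.03 of each other on the log2 scale. This shows unequal change of the 2 signals and does not show which of them changed. The pattern was noticed in these data and has no independent check here. The 2 genes are close relatives, the probe sequences were not used here, and how far each probe set also reads the other transcript was not tested.

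**Figure D2:**
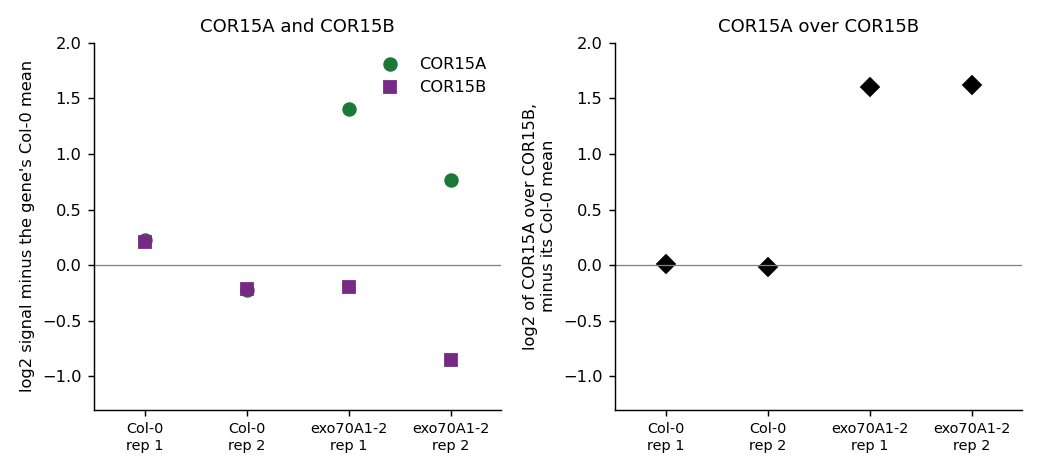
Left, log2 signal of COR15A (green circles) and COR15B (purple squares) on each array, minus the gene's Col-0 mean; right, log2 of the COR15A signal over the COR15B signal, minus its Col-0 mean. Replicate 1 lies above replicate 2 for both genes in both genotypes, and the ratio lies near 0 on the Col-0 arrays and at 1.60 and 1.62 on the exo70A1-2 arrays.

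Of the 2 dehydrin genes, LTI30 was higher in exo70A1-2 and COR47 was not, and both had smaller gaps between replicates than COR15A and COR15B. COR47 (AT1G20440) had a signal of 1502 and 1393 in Col-0 and of 1426 and 1341 in exo70A1-2. The genotypes overlapped, and the log2 fold change of -0.07 (SE 0.10) had a 95% interval of -0.29 to 0.16, which corresponds to folds of 0.816 to 1.12. After quantile normalization its log2 fold change was 0.0099, so its direction is not settled. The COR47 replicates agreed to 1.08-fold in Col-0 and 1.06-fold in exo70A1-2.

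LTI30 (AT3G50970), in contrast, had a signal of 448 and 459 in Col-0 and of 915 and 817 in exo70A1-2. Both mutant arrays stood well above both wild-type arrays, and the replicates differed by 1.02-fold in Col-0 and 1.12-fold in exo70A1-2. Of the probe sets of like mean signal, 14.2% had a smaller gap than LTI30 in Col-0 and 73.0% in exo70A1-2. The means were 454 ± 7.87 and 866 ± 69.8, with a log2 fold change of 0.93 (SE 0.11, 95% interval 0.68 to 1.18). The 4 combinations of arrays ran from 0.83 to 1.03, a far narrower range than for COR15A, although the fitted rises of the 2 genes were alike in size. With 16 added to each signal LTI30 stood at 0.91 and COR15A at 0.97. LTI30 ranked 449 among the 13648 tested probe sets.

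HIS1-3 (AT2G18050), the linker histone gene, had a signal of 19.9 and 19.0 in Col-0 and of 99.6 and 81.3 in exo70A1-2. Both Col-0 arrays lay under 21.9, the level below which probe sets were left untested and signals count as dim here, and both mutant arrays lay far above it. HIS1-3 entered the test through its exo70A1-2 signal. The mutant mean was 90.5 ± 12.9, and its mean taken on the log2 scale was 4.11 times the limit of 21.9. By that mean the rise over Col-0 was at least 4.11-fold, a figure that leaves out the spread of the mean. Against the measured Col-0 mean of 19.4 ± 0.683, the fitted log2 fold change was 2.21 (SE 0.19, 95% interval 1.78 to 2.65). With 16 added to each signal this value was 1.58, since added constants shrink the differences of dim signals. HIS1-3 ranked 36 of 13648 by fitted rise, a rank that is uncertain because its Col-0 signal was dim.

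**Figure D3:**
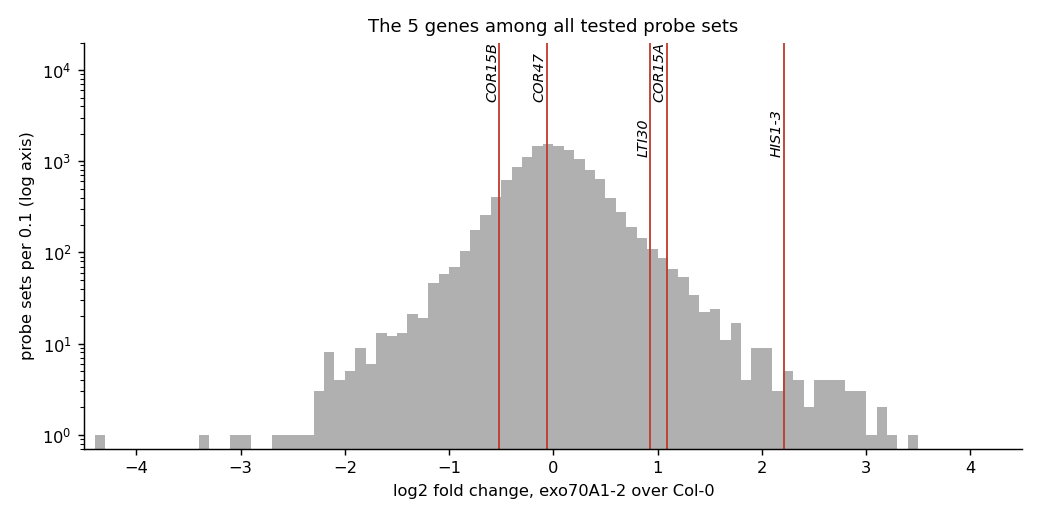
Histogram of the log2 fold change of exo70A1-2 over Col-0 for the 13648 tested probe sets, in steps of 0.1 with a log count axis; red lines mark the 5 genes. HIS1-3 at 2.21 lies in the sparse right tail, COR15A at 1.09 and LTI30 at 0.93 on the right slope, COR47 at -0.07 in the centre and COR15B at -0.52 on the left slope.

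When 1 array at a time was left out, COR15A, LTI30 and HIS1-3 stayed higher in exo70A1-2 each time, and COR47 kept a small negative value. Each of these fits tested 13648 probe sets, as did the fit with all arrays. HIS1-3 was among them through its exo70A1-2 signal, and it had been chosen for its rise. COR15A and LTI30 had also been chosen with this comparison known. That COR15A, LTI30 and HIS1-3 stayed higher is therefore no independent support for their rises. The log2 fold change of COR15A ran from 0.77 to 1.40, that of LTI30 from 0.85 to 1.01 and that of HIS1-3 from 2.07 to 2.36. For all but COR47 the lowest value came without exo70A1-2 replicate 1 and the highest without exo70A1-2 replicate 2. For COR47 the lowest, -0.12, came without Col-0 replicate 2 and the highest, -0.01, without Col-0 replicate 1. In these fits the lone array of a genotype is assumed to vary like the others.

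**Figure D4:**
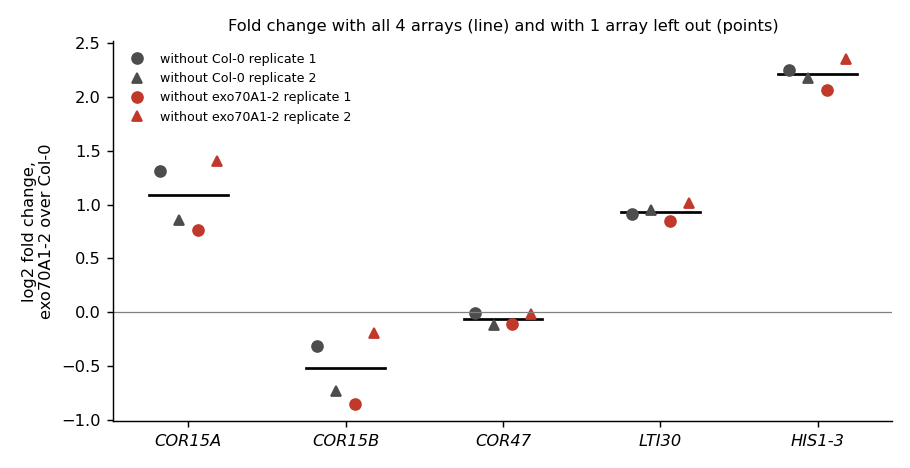
Log2 fold change of exo70A1-2 over Col-0 of each gene with all 4 arrays (black line) and with 1 array left out (grey for a Col-0 array, red for an exo70A1-2 array, circle for replicate 1, triangle for replicate 2). The points of COR15A and COR15B spread widest, and those of LTI30, from 0.85 to 1.01, stay close to its line.

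The fixed lists of cold, drought, ABA and linker histone genes were hardly covered. Of their 80 genes, 7 had a probe set of a single gene and 5 were tested, of which 0 were called higher and 0 lower (limma, adjusted p under 0.05) and 1 had an unadjusted p under 0.05. Of the 7213 named genes tested across the array 7.54% were called higher and 6.53% lower, and 29.1% had an unadjusted p under 0.05, so both counts lie near the background. The 5 were 1 dehydrin gene, 2 cold-induced genes and 2 genes of the linker histone and HMG list. Of the listed drought and ABA target genes, cold signalling regulators and ABA synthesis and signalling genes 0 were tested. The median log2 fold change of the 5 tested genes was 0.04.

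COR27, a cold-regulated gene linked to the circadian clock, had a signal of 127 and 137 in Col-0 and of 89.8 and 115 in exo70A1-2. Its mutant arrays lay below its wild-type arrays, but the log2 fold change of -0.37 (SE 0.16) did not pass (limma, adjusted p = 0.151). AT4G33980, listed with it, stood at 0.04 with overlapping arrays (limma, adjusted p = 0.908). The dehydrin gene AT1G54410 (HIRD11) had a signal between 1832 and 2351 on all 4 arrays and a log2 fold change of -0.16 (limma, adjusted p = 0.381). AT1G06760 and AT2G30620, entered by locus number in the list of linker histone and HMG genes beside HIS1-3, stood at 0.06 and 0.04 with standard errors of 0.13 and 0.12. Neither passed (limma, adjusted p = 0.802 and 0.845). LEA4-5 and LEA18, which encode late embryogenesis abundant proteins, were too dim to be tested, with signals of at most 10.0 and 16.5.

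A wider set was drawn from the RefSeq names after the data had been seen, taking each gene whose name or synonym speaks of cold, low temperature, drought, dehydration, dehydrin, late embryogenesis or C-repeat. Of 76 such genes, the 5 above left out, 12 had a probe set of 1 gene and 7 were tested, COR27 and HIRD11 among them. By limma 0 of the 7 were called at an adjusted p under 0.05, where 7.54% of named genes tested were called higher and 6.53% lower. An unadjusted p under 0.05 was found for 4 of the 7, against 29.1% of all named genes tested. The set was drawn after the data had been seen, so nothing is read from these counts. The median log2 fold change of the 7 was 0.14, within a range of -0.37 to 0.62. DI21, named for induction by drought, had a signal of 214 and 126 in Col-0 and of 265 and 241 in exo70A1-2, and its log2 fold change was 0.62 (SE 0.22, limma, adjusted p = 0.0928). Without Col-0 replicate 1 the DI21 value was 1.01 and passed (limma, adjusted p = 0.000828). DI19, a further drought-induced gene, stood at 0.31 (SE 0.11, limma, adjusted p = 0.102), and SRC2, named for a soybean gene regulated by cold, at 0.35 (SE 0.13, limma, adjusted p = 0.110). Without Col-0 replicate 2 both passed, DI19 at 0.44 (limma, adjusted p = 0.0112) and SRC2 at 0.54 (limma, adjusted p = 0.00541), and DI19 also passed after quantile normalization, at 0.39 (limma, adjusted p = 0.0402). AT2G44060 (LEA26) at 0.14 and AT2G46140 (LEA27) at -0.23 did not pass. The 5 genes of this set that were not tested all had signals under the dim limit on every array, 16.5 at most.

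**Figure D5:**
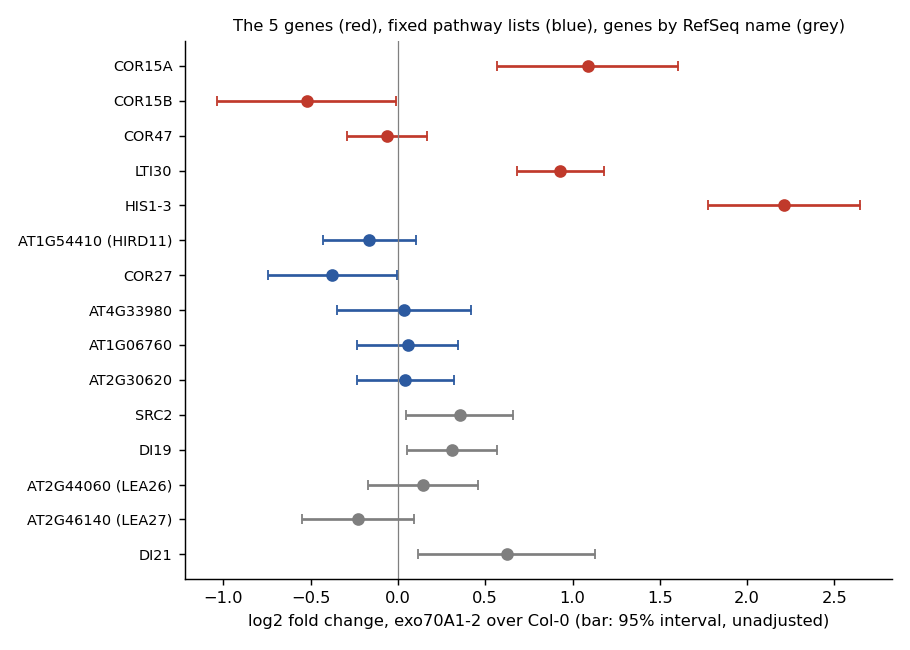
Log2 fold change of exo70A1-2 over Col-0 with its unadjusted 95% interval from the fit over all tested probe sets, for the 5 genes (red), the tested genes of the pathway lists (blue) and further genes whose RefSeq name speaks of cold, drought or dehydration (grey). HIS1-3 at 2.21 (dim in Col-0), COR15A at 1.09 and LTI30 at 0.93 lie to the right of every other gene drawn, of which DI21 at 0.62 is the highest. The interval of DI21, 0.12 to 1.13, overlaps those of COR15A and LTI30. The 5 genes were chosen with this comparison known, so nothing is read from their order against the others.

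Of the 16 genes within 2 places on either side of these 5, 7 had a probe set of 1 gene and 4 were tested, none of them beside LTI30. By limma 0 of the 4 were called and 0 had an unadjusted p under 0.05, where 7.54% of named genes were called higher and 6.53% lower, so nothing is read from these counts. AT2G42520, on the far side of COR15B from COR15A, stood at -0.31 (SE 0.16), and AT1G20410 and AT1G20430, before COR47, stood at -0.32 (SE 0.18) and 0.01 (SE 0.13). MSRA5, a methionine sulfoxide reductase gene near HIS1-3, stood at 0.16 (SE 0.17). ERD10, the dehydrin gene next to COR47, and XERO1, that next to LTI30, had no probe set of a single gene and are not analysed here.

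The genes whose pattern over the 4 arrays lay nearest to each of the 5 were found by the root mean square difference of log2 signals after each probe set's mean was subtracted. For COR15A the nearest was AT5G57345, at a distance of 0.12 with a log2 fold change of 1.22 (SE 0.19), then AT2G28270 and AT5G59530, both at 0.14, with 2 dim Col-0 arrays and 1. For COR15B they were scpl50, which encodes a serine carboxypeptidase-like protein, at 0.05, and AT1G08580 and AT5G45700, both at 0.06. All these neighbours of COR15A and COR15B had replicate 1 above replicate 2 in each genotype, which the search for like patterns favours. For LTI30 the nearest were AT1G70880 at 0.0055, AT1G26800 at 0.016 and AT4G33550 at 0.029, with log2 fold changes of 0.94, 0.95 and 0.91, the first with 1 dim Col-0 array. For HIS1-3 they were AT1G65500 at 0.067, AT1G55960 at 0.11 and AT4G07820 at 0.17. Both Col-0 arrays of AT1G65500 were dim, as for HIS1-3 itself, and it was at least 3.12-fold higher, while the other two had log2 fold changes of 2.12 and 1.91. For COR47, whose arrays hardly differed, AT5G08430, AT1G19330 and AT2G25530 all lay within 0.012. The search ran over 4 arrays and 7282 other tested probe sets of 1 named gene, and it says only that the signals ran alike.

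Markers of organs and seed were checked beside these results. Of 6 green shoot markers 2 were tested, and their summed signal was 10103.5 and 9325 in Col-0 and 8763 and 9005 in exo70A1-2. Of 7 root markers 4 were tested, and their summed signal was 7182 and 7164 in Col-0 and 7360 and 7421 in exo70A1-2. RCA and LHCB4.1, of photosynthesis, stood at -0.16 and -0.09 on the log2 scale. JAL33, NAI2, EXPA7 and PYK10, listed as root markers, stood at 0.18, 0.18, 0.16 and -0.04. The root sum rested mainly on PYK10, JAL33 and NAI2, as EXPA7 had a signal between 49.9 and 64.9. How far these genes read the share of root was not tested. In the first sum both mutant arrays lay below both wild-type arrays, and in the second above them. None of these 6 genes was called (limma, adjusted p between 0.230 and 0.782), and 0 had an unadjusted p under 0.05. The part of organ proportions in the differences of COR15A, LTI30 and HIS1-3 was not tested. None of the 8 seed maturation markers listed had a probe set of a single gene.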

How the data were processed

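RNA of 4 seedling samples was hybridised to one-colour ATH1 arrays, grouped by the genotype in their titles, which also give the replicate number. The deposited values are intensities on a linear scale, made with MAS5 and GCOS per the submitters' processing notes, which give no versions. The values show that the authors scaled each array to a mean of 100.0 after trimming 2% at each end. Array medians ran from 37.3 to 38.8. Detection calls were not used here.

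Of 22810 probe sets, 64 controls were left out, and signals were turned to log2 with no constant added. Probe sets whose mean log2 signal reached the 40th percentile (a signal of 21.9, the dim limit) were tested, 13648 in all, with limma 3.58.1 in R 4.3.3 (eBayes with an intensity trend, two-sided, Benjamini-Hochberg, threshold 0.05). Where every array of the lower genotype was dim, the fold is at least the other genotype's log2 mean over that limit. The fit was tested on simulated data with normal noise of the same spread for every probe set. That test does not cover a spread that changes with signal.

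Of 22746 probe sets, 13513 had 1 gene, 503 several and 8730 none named in the annotation, and 13436 of the first matched RefSeq (TAIR10.1), which served for names and gene order. A list gene was represented by its brightest probe set. The members and lists were chosen with earlier results of these data known. Named are all tested genes of lists with at most 8 tested, the 2 genes on each side of a member, and the 3 nearest in pattern; genes of the RefSeq name rule were added after their values were seen. No probe set was named for EXO70A1, so its level does not check the genotype labels.

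Alternatives were other scalings, filters, variance priors and thresholds, 16 added to the signal, each array left out, and the replicate number as a block. Figures were drawn with matplotlib 3.10.9.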

Additional observations from a re-analysis of the deposited data

How the results depend on the processing

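LTI30 kept its call in all 14 alternatives and HIS1-3 in the 13 that tested it. The calls of LTI30, COR15A and HIS1-3 are no independent support for their rises. These genes were chosen with this comparison known, and the alternatives use the same arrays. HIS1-3 was chosen for its rise and, where a filter applied, passed the filter through its exo70A1-2 signal. COR15A kept its direction in all 14 and its call in 13, with a log2 fold change of 1.09 that did not pass at an adjusted p under 0.01. COR47 turned to 0.0099 after quantile normalization and was not called in any. COR15B, between -0.85 and -0.19 when 1 array was left out, passed without Col-0 replicate 2 and without exo70A1-2 replicate 1. It also passed with the replicate number as a block, at -0.52. With this replicate block 2168 probe sets were higher and 2098 lower, against 1165 and 1024, 1 pathway list gene was lower (COR27), and 3 of the genes chosen by RefSeq name (SRC2, DI19 and DI21) were higher. With 2 arrays per genotype and no label on what a number stands for, the numbers were not taken as pairs. The replicate difference correlated at 0.28 between genotypes across probe sets. On leaving out 1 array, between 577 and 1696 probe sets were higher and between 396 and 1347 lower. Without the intensity trend 679 were lower. By construction, an adjusted p under 0.10 gave 1599 lower, and one under 0.01 gave 471 higher and 345 lower. Where no cause is stated, the cause was not tested. Noisy MAS5 values near background limit HIS1-3 in Col-0 and the late embryogenesis genes. The alternative that did not test HIS1-3 was the stricter filter, at the 60th percentile of the mean log2 signal.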
